A study of Mus musculus with 8 samples.

Results

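The nuclear-encoded subunits of the mitochondrial respiratory chain and ATP synthase were examined in islets from the pancreas of AKR/J mice and, as the other strain, C57Bl/6J mice. Both are inbred strains, and both had been fed a high-fat diet for 3 months. The list held 35 genes: 10 of complex I, 4 of complex II, 4 of complex III, cytochrome c, 7 of complex IV and 9 of complex V. Members were found by gene symbol in GEO's platform annotation of the Affymetrix mouse array, and each gene was taken by its probe set with the highest mean over all arrays. This gave 34 measured genes of the 10891 genes tested, and 62 tested probe sets of 20772; Cox7b was not analysed here. Each strain had 4 arrays, AKR/J arrays 1 to 4 and C57Bl/6J arrays 5 to 8, and each array carried islet RNA pooled from 2 mice. The diet is shared by every sample analysed here, and the only comparison is between strains. The labels give no age or sex of the mice.

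Complexes I to IV pass electrons from NADH and succinate to oxygen. Complexes I, III and IV pump protons as they do so, complex II feeds in electrons without pumping, and cytochrome c carries electrons from complex III to complex IV. Complex V, the ATP synthase, uses the returning protons to make ATP. In beta cells the ATP made from glucose closes potassium channels of the cell membrane, which opens calcium channels and releases insulin. Most subunits are encoded in the nucleus, and a core of them in mitochondrial DNA.

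Most of these genes did not differ past the test's threshold, and those that did differed by under 2-fold. Of the 34 measured members, 4 were higher in AKR/J islets (Ndufa1, Uqcrfs1, Cox6a1 and Atp5g1), 1 was lower (Sdha) and 29 did not pass the threshold. The test was limma's, with p-values adjusted by Benjamini-Hochberg over all 20772 probe sets and a threshold of 0.05. It called 16.3% of all genes tested, 7.79% as higher in AKR/J and 8.53% as lower, and 14.7% of the members, a share near that of all genes. Each of complexes I, II, III, IV and V held 1 called member. The differences ran from -0.40 to 0.77 on the log2 scale (AKR/J minus C57Bl/6J, used for all differences here).

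The members' differences were small and mostly positive. Their median difference was 0.079, against 0.0001 over all genes tested, and 27 of 34 were above 0, against 50% of all genes. Their median size was 0.091, against 0.188 over all genes, and 18 of them were under 0.1 in size. All 4 AKR/J arrays lay above all 4 C57Bl/6J arrays for 9 members and below them for 3, where 13.4% of all genes lay above and 11.7% below. The mean deviation of the members from their own means was 0.04, 0.12, 0.07 and -0.01 on AKR/J arrays 1 to 4, against -0.03, -0.06, -0.01 and -0.13 on C57Bl/6J arrays 5 to 8. AKR/J array 4 lay just below C57Bl/6J array 7, so the strains overlapped in this mean. The map of members by array shows these deviations gene by gene.

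**Figure D1:**
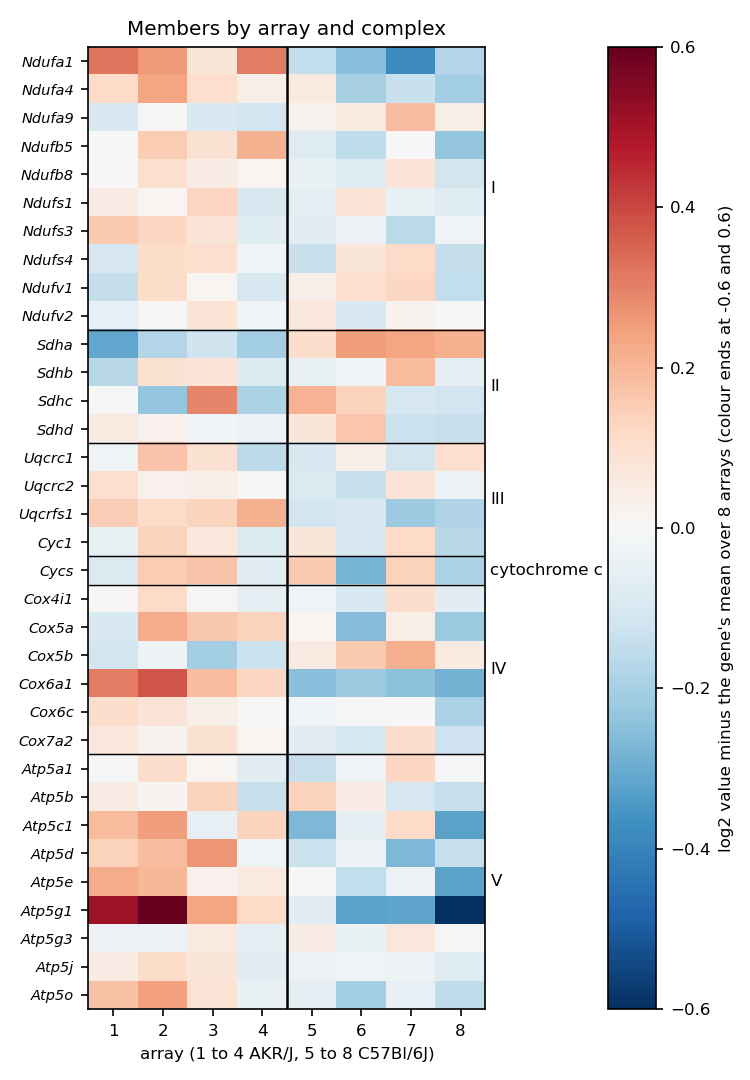
Each row is a member and each column an array, AKR/J (1 to 4) left of C57Bl/6J (5 to 8); colour is the log2 value minus the gene's mean over 8 arrays, and lines part the complexes. Atp5g1, Cox6a1, Ndufa1 and Uqcrfs1 are above their mean on all 4 AKR/J arrays and Sdha is below it.

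All 34 used probe sets were detected on all 8 arrays. The share of probe sets detected was 43.7% to 47.0% on AKR/J arrays and 45.7% to 48.1% on C57Bl/6J arrays, and the log2 difference of the 3' and 5' Gapdh control probe sets was -0.33 to -0.24 in AKR/J, against -0.22 to 0.11 in C57Bl/6J, where array 8 gave the 0.11 and the other 3 arrays -0.22 to -0.19. Without array 8 the counts of called members were again 4 higher and 1 lower. Beta cell markers were present on all arrays, with summed intensities of 147400 to 157100 on AKR/J arrays and 142900 to 151200 on those of C57Bl/6J; 0 of 12 were called higher and 3 lower. Markers of acinar cells, macrophages and endothelium were counted in the same way, as were cell cycle genes. Of 21 acinar markers 19 were lower in AKR/J and 1 higher, with summed intensities of 289800 to 345900 on AKR/J arrays and 504200 to 517600 on those of C57Bl/6J. Of 14 macrophage markers 8 were lower (AKR/J 1981 to 2491, C57Bl/6J 3479 to 4588), and of 14 endothelial markers 4 were higher (AKR/J 5925 to 6932, C57Bl/6J 5425 to 6020). Of 17 cell cycle genes 11 were higher (AKR/J 2395 to 3503, C57Bl/6J 1388 to 1996). The summed ranges of the strains overlapped for the beta cell and endothelial markers and did not for the other lists. A marker counted as measured only if its probe set was detected on at least 4 of 8 arrays. Rbpjl, Itgam, Ccnb2, Tyms, Birc5 and Aurkb were listed but fell below that filter. The part of these cell types in the differences below was not tested. In such bulk RNA a change in the share of a cell type and a change in RNA per cell cannot be told apart. Nothing in the labels says that arrays share mice, and p-values measure the spread between pools.

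Upstream sequences are printed for 3 of the called members: Cox6a1, which had the smallest p; Atp5g1, which had the largest difference; and Sdha, the lower one. They are the 250 bases before the gene start in RefSeq (build GRCm38.p6), 5′ to 3′ on the gene's strand. Capitals mark motif matches, which were found in Cox6a1 alone of these 3, and the motif counts are given with the promoters of the whole list.
Cox6a1, chr5:115348959-115349208, minus strand: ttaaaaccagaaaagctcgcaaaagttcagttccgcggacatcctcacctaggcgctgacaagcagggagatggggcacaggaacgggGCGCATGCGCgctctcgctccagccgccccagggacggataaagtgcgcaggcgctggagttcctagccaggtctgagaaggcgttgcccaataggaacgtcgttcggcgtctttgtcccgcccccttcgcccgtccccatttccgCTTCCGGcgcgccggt
Atp5g1, chr11:96075632-96075881, minus strand: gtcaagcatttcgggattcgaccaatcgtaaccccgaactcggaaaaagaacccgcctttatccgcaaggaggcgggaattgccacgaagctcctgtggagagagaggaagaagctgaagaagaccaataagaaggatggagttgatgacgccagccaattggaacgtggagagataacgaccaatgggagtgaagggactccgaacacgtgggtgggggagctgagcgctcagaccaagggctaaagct
Sdha, chr13:74350241-74350490, minus strand: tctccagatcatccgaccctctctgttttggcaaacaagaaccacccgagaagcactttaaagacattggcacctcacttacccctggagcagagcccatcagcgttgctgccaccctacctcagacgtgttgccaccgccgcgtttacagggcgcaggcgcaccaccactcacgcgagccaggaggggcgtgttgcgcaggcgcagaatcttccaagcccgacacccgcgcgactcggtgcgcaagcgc

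Complex I, the NADH dehydrogenase, had 1 of 10 members called. Ndufa1, an X-linked accessory subunit of the membrane arm that complex I needs to assemble, had log2 values of 13.65, 13.58, 13.40 and 13.64 in AKR/J islets, against 13.18, 13.07, 12.94 and 13.15 in C57Bl/6J islets. The arrays of the strains did not overlap. AKR/J averaged 13.57 ± 0.12 and C57Bl/6J 13.09 ± 0.11 (mean ± SD, n = 4 each), a difference of 0.48 (SE 0.085), or 1.39-fold, with a limma adjusted p of 0.00833. A single probe set was tested for Ndufa1.

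The other 9 complex I members did not pass. The core subunits Ndufs1, Ndufv1 and Ndufv2, of the module that oxidises NADH, differed by 0.05, -0.06 and 0.01. Ndufs3, a core subunit of the arm that leads to ubiquinone, differed by 0.14 (95% interval -0.03 to 0.31). Among accessory subunits, Ndufb8 differed by 0.08 and Ndufs4 by 0.05, while Ndufa9, which binds a nicotinamide nucleotide, was at -0.15 (limma adjusted p = 0.174). Ndufa9 had values of 9.53, 9.63, 9.53 and 9.51 in AKR/J, against 9.64, 9.68, 9.81 and 9.66 in C57Bl/6J, so its arrays did not overlap although the test did not pass. Ndufb5, of the membrane arm, was at 0.23 (adjusted p = 0.0880), also without overlap. Ndufa4 was at 0.24 (adjusted p = 0.0945); it is listed here with complex I, and later work placed its protein in complex IV. The median over the 10 members was 0.062, with 8 above 0.

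Complex II, the succinate dehydrogenase, which also serves the citric acid cycle, was the complex with a lower median, -0.051, and with 3 of 4 members below 0. Sdha, the flavoprotein subunit that oxidises succinate, had log2 values of 10.05, 10.18, 10.24 and 10.16 in AKR/J islets, against 10.46, 10.61, 10.59 and 10.57 in C57Bl/6J islets. Every AKR/J array lay below every C57Bl/6J array. AKR/J averaged 10.16 ± 0.08 and C57Bl/6J 10.56 ± 0.07 (mean ± SD, n = 4 each), a difference of -0.40 (SE 0.069), 1.32-fold lower, with a limma adjusted p of 0.00692. A second probe set of Sdha was also lower, by -0.31 (adjusted p = 0.0236), and the last, dim one was at -0.11 and did not pass.

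The 3 remaining subunits of complex II did not pass. Sdhb, which carries the iron-sulfur centres, differed by -0.04 (95% interval -0.24 to 0.17). The membrane anchors Sdhc and Sdhd differed by -0.06 and 0.01, with intervals from -0.37 to 0.25 and from -0.18 to 0.21. At these probe sets a decrease as large as the 0.40 of Sdha lay outside all 3 intervals. A dimmer probe set of Sdhd, at -0.24, had an interval from -0.58 to 0.09, which includes it.

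Complex III, the cytochrome bc1 complex, had 1 of 4 members called and all 4 above 0. Uqcrfs1, the Rieske iron-sulfur protein that takes electrons from ubiquinol, had values of 10.72, 10.69, 10.71 and 10.79 in AKR/J islets, against 10.46, 10.49, 10.36 and 10.39 in C57Bl/6J islets. Its strains did not overlap, and its spread was among the narrowest of the members. AKR/J averaged 10.73 ± 0.04 and C57Bl/6J 10.42 ± 0.06 (mean ± SD, n = 4 each), a difference of 0.30 (SE 0.061), or 1.23-fold, with a limma adjusted p of 0.0140. With the MAS5-type signals of the same arrays the difference was 0.24 and the call was lost (adjusted p = 0.135).

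The haem protein cytochrome c1, Cyc1, differed by 0.04, and the core proteins Uqcrc1 and Uqcrc2 by 0.04 and 0.09. None of these 3 passed, and their intervals ran from -0.17 to 0.25. Cytochrome c itself, Cycs, had values of 11.47, 11.71, 11.73 and 11.50 in AKR/J, against 11.72, 11.28, 11.70 and 11.37 in C57Bl/6J. These overlapped widely, and the difference of 0.09 did not pass (limma adjusted p = 0.683, 95% interval -0.20 to 0.37). A slightly dimmer probe set of Cycs was at 0.32 (adjusted p = 0.117, 95% interval 0.04 to 0.60) and the last at 0.11. Neither of them passed, and the strains overlapped in both.

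Complex IV, cytochrome c oxidase, held the member with the smallest p. Cox6a1, the isoform of subunit VIa found outside heart and muscle, had values of 13.73, 13.80, 13.61 and 13.55 in AKR/J islets, against 13.17, 13.21, 13.18 and 13.14 in C57Bl/6J islets. The lowest AKR/J array stood above the highest C57Bl/6J array. AKR/J averaged 13.67 ± 0.11 and C57Bl/6J 13.18 ± 0.03 (mean ± SD, n = 4 each), a difference of 0.50 (SE 0.072), or 1.41-fold, with a limma adjusted p of 0.00336. The second probe set of Cox6a1 did not show it: its difference was 0.06 (adjusted p = 0.652; 95% interval -0.12 to 0.24). With the MAS5-type signals the difference of the used probe set was 0.32 and the call was lost (adjusted p = 0.0635).

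Cox5b, a nuclear subunit on the matrix side, was the complex IV member below 0. It had values of 12.19, 12.27, 12.09 and 12.17 in AKR/J, against 12.35, 12.46, 12.52 and 12.36 in C57Bl/6J, which did not overlap. Its difference of -0.24 narrowly missed the threshold (limma adjusted p = 0.0574), while its 4 tested probe sets all lay below 0, from -0.36 to -0.23, and 2 of them passed (adjusted p = 0.0161 and 0.0474). The other members did not pass: Cox5a differed by 0.22, Cox6c by 0.11, Cox7a2 by 0.09 and Cox4i1, the ubiquitous isoform of subunit IV, by 0.04. The dimmer probe sets of Cox5a were at -0.03 and -0.0004. The median over the 6 measured members was 0.10.

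Complex V had the highest median of the complexes, 0.23, with 8 of 9 members above 0 and 1 called. Atp5g1, one of the genes for subunit c, which forms the rotating ring of the membrane part, had values of 11.39, 11.55, 11.12 and 11.00 in AKR/J islets, against 10.82, 10.56, 10.57 and 10.05 in C57Bl/6J islets. The strains did not overlap, but each was widely spread. AKR/J averaged 11.27 ± 0.25 and C57Bl/6J 10.50 ± 0.32 (mean ± SD, n = 4 each), a difference of 0.77 (SE 0.18), or 1.70-fold, with a limma adjusted p of 0.0282. The call was lost without array 1, 2, 6 or 7 (adjusted p = 0.0552 to 0.0760, differences 0.67 to 0.79) and without the filter on dim probe sets (0.0852).

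Subunit c is encoded by several genes whose mature proteins are the same, so its 3 measured genes were set side by side. Atp5g3 had values of 12.57, 12.57, 12.66 and 12.54 in AKR/J, against 12.65, 12.56, 12.67 and 12.60 in C57Bl/6J, and its difference of -0.03 did not pass (limma adjusted p = 0.765; 95% interval -0.17 to 0.11). Atp5g2, from the list of further subunits, had values of 11.03, 11.07, 10.99 and 11.00 in AKR/J, against 10.50, 10.61, 10.80 and 10.45 in C57Bl/6J. It was higher by 0.44 (adjusted p = 0.0132), although with the MAS5-type signals the difference was 0.11 (adjusted p = 0.628). The intervals of Atp5g1 (0.34 to 1.19) and Atp5g3 did not overlap; the difference between the genes was not tested.

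None of the other ATP synthase members passed with the GCRMA values. In the catalytic head, the alpha and beta subunits Atp5a1 and Atp5b differed by 0.02 and 0.03. With the MAS5-type signals Atp5b was at 0.44 and passed (limma adjusted p = 0.0431). Atp5c1, Atp5d and Atp5e, for the gamma, delta and epsilon subunits of the central stalk, differed by 0.26, 0.28 and 0.25. In the peripheral stalk, Atp5o differed by 0.23 and Atp5j by 0.08. All 4 AKR/J arrays lay above all 4 C57Bl/6J arrays for Atp5d, Atp5e and Atp5o as well as Atp5g1. Over all genes tested, 13.4% lay above in this way. A dimmer probe set of Atp5o was at 0.06, and there the strains overlapped. For Atp5d the values were 10.73, 10.78, 10.86 and 10.57 in AKR/J and 10.46, 10.56, 10.33 and 10.46 in C57Bl/6J. Its adjusted p was 0.0637, and its other probe set, at 0.29, passed (0.0281). Over the complex, the mean deviation from the gene means was -0.01 to 0.20 on AKR/J arrays and -0.22 to -0.05 on C57Bl/6J arrays.

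**Figure D2:**
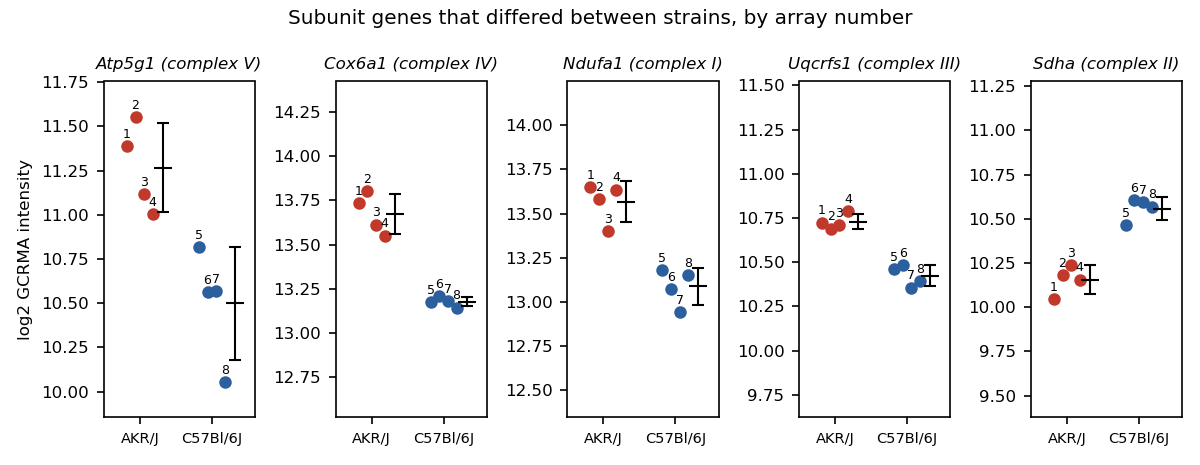
Log2 GCRMA intensity of the 5 called members on each array (points, numbered by array), AKR/J left of C57Bl/6J, with the mean and SD of 4 arrays as bars; axes do not start at 0 and all span the same log2 range. The 4 AKR/J arrays lie above the C57Bl/6J arrays for Atp5g1, Cox6a1, Ndufa1 and Uqcrfs1 and below them for Sdha.

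For the 29 members not called, the 95% intervals lay between -0.40 and 0.53, and 28 of the 29 were within 0.5 of 0. Among them 8 members had differences of at least 0.2 in size that did not pass, so a missed threshold does not show equal levels.

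**Figure D3:**
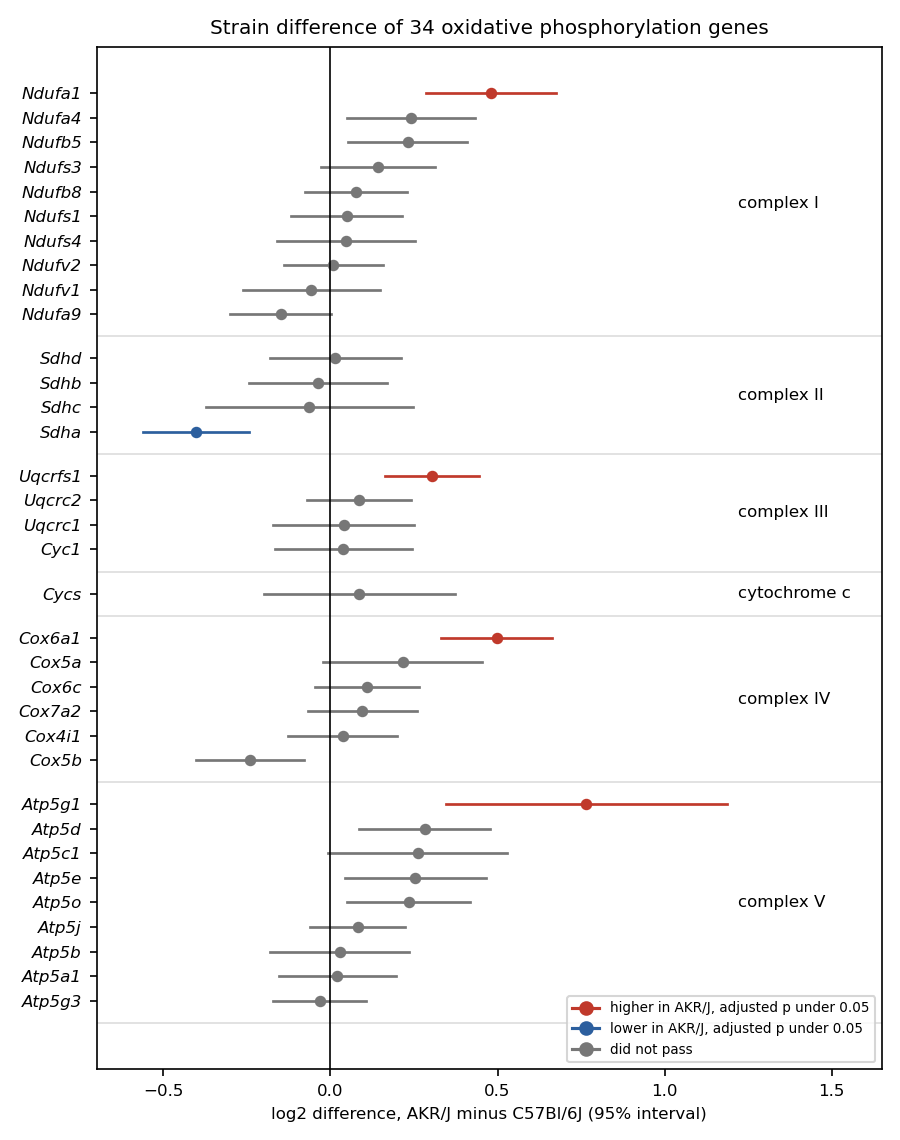
Log2 difference of each measured member, AKR/J minus C57Bl/6J, with its 95% interval from limma, grouped by complex and sorted by size. Colour marks the 4 members higher and the 1 lower in AKR/J; the 29 grey members did not pass.

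Probe sets of one gene mostly gave the same direction. Of the 18 members with 2 or more tested probe sets, 13 had all differences of one sign, and the median spread within a gene was 0.16. Calls among the 62 probe sets numbered 6 higher in AKR/J and 5 lower. The share called over all tested probe sets was not counted, so these calls have no background beside them. Ndufs4, an accessory subunit that joins the NADH module to the rest of complex I, was the widest case: its used probe set was at 0.05, and a dimmer one was lower by -0.57 (limma adjusted p = 0.0168). Ndufb5 went one way, at 0.23 for the used probe set and 0.37 for the other, which passed (adjusted p = 0.0155). Members not called at the used probe set but called at another were these 2 with Cox5b and Atp5d. A sequence difference between the strains under a probe also changes its signal; its part was not tested.

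**Figure D4:**
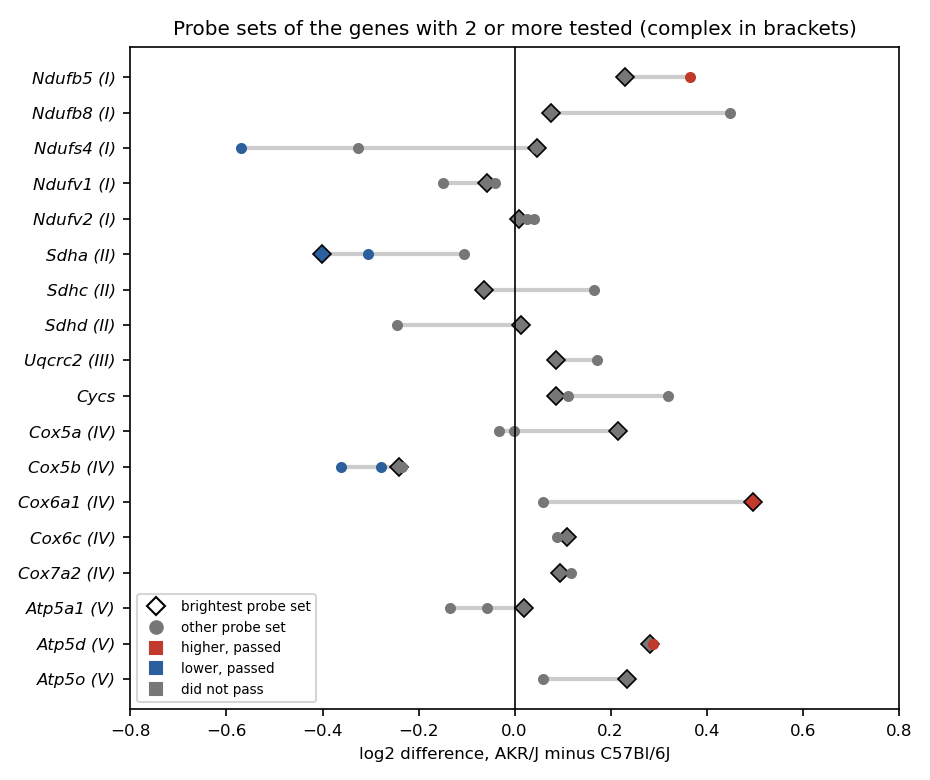
Log2 difference (AKR/J minus C57Bl/6J) of every tested probe set of the 18 members with 2 or more, diamonds for the brightest and circles for the others; colour marks calls. Cox5b lies below 0 in all 4 probe sets, while Cox6a1 has 1 called probe set at 0.50 and another near 0.

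Residuals after strain were more alike between arrays 1, 2, 5 and 6 and between arrays 3, 4, 7 and 8 than across these sets (r = 0.079 to 0.387 for arrays of the other strain in the same set, -0.402 to 0.016 in the other set). No label names this split, which was known from earlier results. With the sets as a block the counts stayed at 4 higher and 1 lower. Within each set alone, with 2 arrays a strain, limma called 0 members (at an unadjusted p under 0.05, 7 higher and 1 lower in the first, 4 higher and 2 lower in the second), and the differences of the 5 called members were 0.49 and 0.47 for Ndufa1 (arrays 1, 2, 5 and 6 first), -0.42 and -0.38 for Sdha, 0.23 and 0.37 for Uqcrfs1, 0.58 and 0.42 for Cox6a1, and 0.78 and 0.75 for Atp5g1. Their directions were fixed beforehand, because the strains of these 5 did not overlap over all arrays. The share of all genes at an unadjusted p under 0.05 was not counted, so those member counts have no background beside them.

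Beyond the list, 50 further nuclear subunits of complexes I, III, IV and V were looked up and 43 were measured. Of these 5 were higher and 2 lower (median 0.11), a share of 16.28%, near the 16.3% of all genes tested. Ndufa12, an accessory subunit at the joint of the complex I arms, had values of 12.21, 12.43, 12.22 and 12.17 in AKR/J, against 11.53, 11.55, 11.66 and 11.55 in C57Bl/6J. It was higher by 0.68 (limma adjusted p = 0.00101), and its 3 probe sets were all called. All 3 carry the suffix _x_at or _s_at, so Ndufa12 had no value in the alternative that left such probe sets out. Ndufa3, of the membrane arm, was higher by 0.62 (adjusted p = 0.00151) at the brighter probe set and by 0.66 (adjusted p = 0.000998) at the other. In the MAS5-type signals the brighter one was at 0.36 and did not pass (adjusted p = 0.0593). Ndufa13, also known as GRIM-19, was lower by -0.41 (adjusted p = 0.00910). Together, the members and these further subunits gave 9 higher and 3 lower of 77, or 15.6%, and a median of 0.082.

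Among the further calls, the probe sets of Uqcr10 differed in direction, and Cox7c had 1 tested probe set. Uqcr10, a small complex III subunit, was higher by 0.48 at its brightest probe set (limma adjusted p = 0.00747). A second probe set was lower by -0.87 (adjusted p = 0.0109), and the remaining one, undetected throughout AKR/J, was at least 31.8-fold lower there (adjusted p = 1.61e-07). Cox7c, of complex IV, was dim, detected on 6 of 8 arrays, and lower by -0.84 (adjusted p = 0.0253); this call was lost when array 1, 4, 5, 6 or 8 was left out (highest adjusted p 0.0685). The seventh called gene was Cox6b1, of complex IV, which is named after its value was seen. It was higher by 0.29 (limma adjusted p = 0.0323) at the brighter of its 2 tested probe sets. The dimmer one is not described here.

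Assembly factors, which build the complexes without staying in them, gave 2 higher and 1 lower of 43 measured. That is 6.98% called, against 16.3% of all genes tested. Ndufaf1, a chaperone of complex I assembly, had values of 5.29, 5.33, 5.68 and 5.28 in AKR/J, against 6.82, 6.32, 7.0 and 6.55 in C57Bl/6J. It was lower by -1.28, or 2.42-fold lower, with a limma adjusted p of 0.00170. In the MAS5-type signals it was at -0.80 and also passed (adjusted p = 0.00123). Timmdc1, another complex I assembly factor, was higher by 0.76 (adjusted p = 0.0101). Uqcc3, for complex III, was higher by 0.58 (adjusted p = 0.0351), a call that was lost without any one of arrays 1 to 6 (adjusted p up to 0.0917). Subunits encoded in mitochondrial DNA were measured for 1 of 13 genes: ND5, of complex I, was at -0.18 and did not pass (adjusted p = 0.119).

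Of 17 measured regulators of respiratory genes and mitochondrial DNA, 1 was higher and 2 were lower, with a median of -0.14. The share called, 17.65%, was near the 16.3% of all genes tested. The mitochondrial transcription factor Tfb2m was higher by 0.74 (limma adjusted p = 0.00607), and the MAS5-type signals of the same probe set gave -0.01. Tfb1m, its relative that methylates ribosomal RNA, was lower by -0.48 (adjusted p = 0.0171), a call that was lost in the MAS5-type signals (-0.43, adjusted p = 0.143). Its other probe set, undetected throughout AKR/J, was at -0.23 and did not pass (limma adjusted p = 0.297). The strains overlapped in it, so it shows no least decrease. Lrpprc, which stabilises mitochondrial messenger RNA, was lower by -0.50 (adjusted p = 0.0190); the call was lost when array 1, 2, 5 or 6 was left out (highest adjusted p 0.0528), and the difference was -0.18 in the MAS5-type signals.

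Neighbouring mitochondrial pathways were also counted, beside the 16.3% of all genes tested that were called. Of 12 citric acid cycle enzymes limma called 0 (0 higher and 3 lower at an unadjusted p under 0.05: Idh3a, Suclg2 and Fh1), with a median difference of 0.02; the brightest probe sets were those of Mdh2, a malate dehydrogenase, at 0.17 (adjusted p = 0.342), and Sucla2, of succinyl-CoA synthetase, at 0.20 (adjusted p = 0.173). Of 9 carriers, porins and import proteins limma also called 0 (1 higher at an unadjusted p under 0.05, the ADP/ATP carrier Slc25a4), with a median of 0.04; Slc25a5, another such carrier, was at -0.10 (adjusted p = 0.429) and Tomm20, an import receptor, at -0.15 (adjusted p = 0.306). For the counts at an unadjusted p, the share of all genes was not counted. Sdha belongs to the citric acid cycle too and is counted with complex II.

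**Figure D5:**
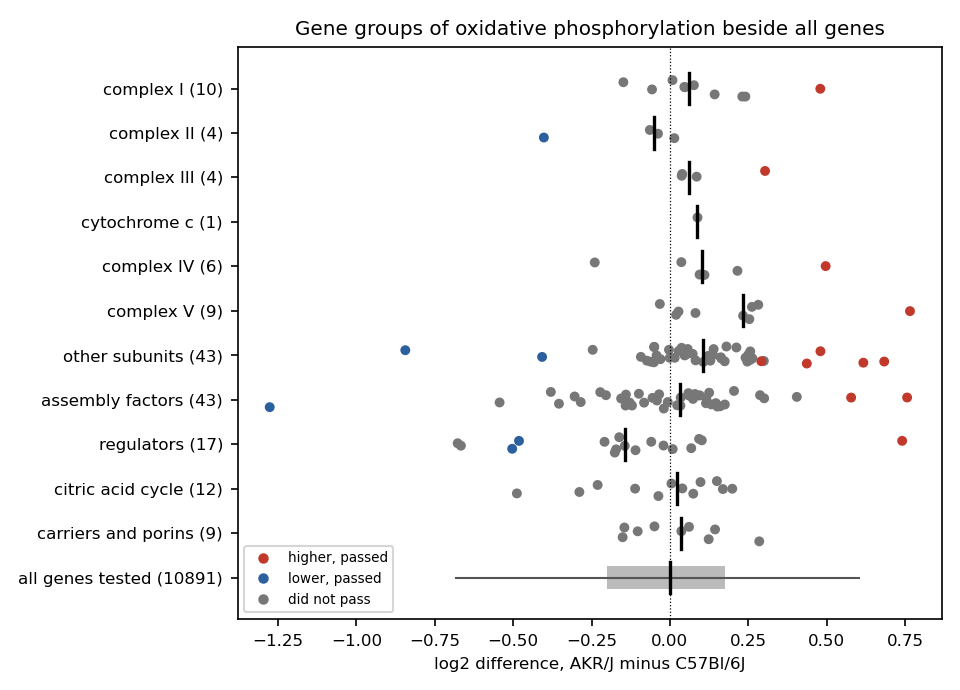
Log2 difference (AKR/J minus C57Bl/6J) of each measured gene by group, the number of genes in brackets; thick ticks are medians and colour marks calls. The bottom bar shows all 10891 genes tested, with a box from the 25th to the 75th percentile and a line from the 5th to the 95th percentile; the medians of complexes I to V lie between -0.051 and 0.23.

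Promoters of the members were searched for motifs of factors known to drive respiratory genes. RefSeq windows from 250 bases before to 50 after the gene start were found for 28 of the 35 listed genes, 31 windows in all. The motifs were GCGCATGCG for NRF1, CCGGAAG for ETS factors such as GABPA, and AAGATGGCG for YY1, each searched on both strands, with overlapping matches of one motif merged. NRF1's letters were in 9.68% of the members' windows (Cox6a1, Uqcrc1 and Cycs) and in 1.75% of all 32851 windows. Those of ETS factors were in 19.4% (Ndufs3, Sdhb, Sdhd, Cox6a1, Atp5e and Atp5j), against 8.86% of all, and those of YY1 in 9.68% (Ndufa9, Ndufs4 and Atp5j), against 1.40%. The members' windows were also richer in G and C, with a median of 60.0% against 52.7%. Among the called members the windows of Ndufa1, Uqcrfs1, Atp5g1 and Sdha held none of these letters, and Cox6a1 held an NRF1 match from -162 to -153 and an ETS match from -16 to -10. The NRF1 matches, in capitals, are shown with their flanks for Cox6a1, for Cycs, which did not pass, and for Atp5g2, the called subunit c gene outside the list.
Cox6a1, chr5:115349101-115349130, minus strand: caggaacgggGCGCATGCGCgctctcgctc
Cycs, chr6:50566612-50566641, minus strand: ccatgctagctCGCATGCGCgcgcacaaac
Atp5g2, chr15:102671070-102671099, minus strand: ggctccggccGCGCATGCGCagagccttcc
A member with the NRF1 letters was called (Cox6a1) and others were not (Uqcrc1 at 0.04 and Cycs at 0.09), and no test was made of motifs against differences.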

How the data were processed

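Islet RNA of 8 pools (5 µg each, 4 pools per strain) was hybridised to Affymetrix arrays, 1 pool an array. The deposited value table holds intensity values on a linear scale; GCRMA was the authors' method, per the submitters' processing notes, which give no version of it. Each array's own deposited file adds an intensity signal of the MAS5 type and a detection p-value, per the file headers. Values were log2-transformed. Of 45101 probe sets, 64 controls were left out, and 20772 detected on at least 4 of 8 arrays were fitted with limma 3.58.1 (lmFit, eBayes; R 4.3.3) and adjusted by Benjamini-Hochberg at 0.05. A gene was taken by its brightest probe set naming it alone (34945 probe sets had 1 symbol, 932 several and 9160 none). Figures used Python 3.11.15 and matplotlib 3.10.9.

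Members and lists were chosen with earlier results of these data known. Every member is named, with up to 6 called genes of each other list by smallest p, or the 2 brightest where none was called; cell markers are given as counts. The fit was tested on simulated data with known changes, placed at random among the 20772 probe sets and not at the members. It recovered 2 of 50 changes of 1.25-fold, 15 of 50 of 1.5-fold, 33 of 50 of 2-fold and 50 of 50 of 4-fold. Of its calls 3.85% were false. The share of probe sets changed in it was far below the 16.3% of genes called in the data, and its noise followed all probe sets. Median residual SD was 0.098 for the members and 0.178 for all genes, so these counts do not give the recovery at the members. A bound takes, per array, the higher of the probe set's value and the lowest value of a detected probe set. The number of arrays limits the precision. Alternatives were another filter, signal summary, normalization, variance model, probe set rule, arrays left out and a block of array sets.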

Additional observations from a re-analysis of the deposited data

Results flagged for a closer look

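Within a strain, 5 of the 102 groups of 4 arrays examined (4.9%) held an array far from the others by Dixon's criterion, which chance gives in about 1 group of 20. Sdhb was at 10.395 on C57Bl/6J array 7, with the nearest array at 10.193. Cox6c was at 11.707 on C57Bl/6J array 8, below the nearest at 11.877, and Atp5j at 11.725 on the same array, below the nearest at 11.767. Array 8 is the C57Bl/6J array with the lowest mean of the members, and its log2 difference of the 3' and 5' Gapdh control probe sets was 0.11, against -0.22 to -0.19 on the other C57Bl/6J arrays; the part of this in the results was not tested beyond leaving the array out, which gave 4 members higher, 1 lower and a median of 0.059. Outside the members, Ndufaf1 was at 5.678 on AKR/J array 3, with the nearest at 5.331, and Mdh2 was at 12.257 on AKR/J array 2, with the nearest at 12.143. Ndufaf1 on that array was still below all 4 C57Bl/6J arrays.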

How the results depend on the processing

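Across 20 alternatives the median difference of the members stayed above 0, from 0.048 to 0.123, with the highest value after centring on array medians, which also moved the median of all genes to 0.044. Members higher in AKR/J numbered 6 in place of 4 with the mean of all tested probe sets, 5 with centring or with trend and robust variance, and 3 with the MAS5-type signals or without the filter. Members lower in AKR/J numbered 2 in place of 1 with a further quantile normalization, with trend and robust variance, without _x_at and _s_at probe sets and with the mean of all tested probe sets; Cox5b was the added one. With arrays 1, 2, 5 and 6 alone 0 members were higher and 0 lower. With arrays 3, 4, 7 and 8 alone the counts were also 0 and 0, each with 2 arrays per strain by construction. At an unadjusted p under 0.05, limma gave 7 higher and 1 lower, and 4 higher and 2 lower. The share of all genes at that cutoff was not counted. Leaving out each array in turn gave 3 to 5 members higher, 1 to 1 lower and medians of 0.054 to 0.102. Of 677 values of members under alternatives, 17 lost a call and 11 gained one; 35 changed sign among values called in neither setting, in 13 members. Reversed were Tfb2m, at -0.008 in the MAS5-type signals, and Uqcr10, at -1.792 with the mean of its probe sets, which differ in sign; the cause of the first was not tested. No paired analysis was possible because the strains share no replicate number. Precision is limited by 4 arrays per strain, and the median residual SD was 0.098 for the members and 0.178 for all genes.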

Other observations

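Ppargc1a, the coactivator PGC-1alpha that drives respiratory genes in muscle and brown fat, is described here after its values were seen. Its brightest probe set had log2 values of 3.60, 4.21, 4.24 and 3.91 in AKR/J islets, against 4.30, 4.62, 4.68 and 5.04 in C57Bl/6J islets, so that the strains did not overlap. The difference of -0.67 did not pass (limma adjusted p = 0.0532), and the probe set was dim and detected on 5 of 8 arrays. Ppargc1a had 4 tested probe sets, and only this one is described here. Other regulators that did not pass ranged as widely: Gabpb1, a subunit of the ETS factor GABP, was at -0.68 (adjusted p = 0.105), its partner Gabpa at -0.06, Nrf1 at 0.07 and Tfam, which packs mitochondrial DNA, at 0.10.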
